A study of Octopus bimaculoides with 16 samples.

Results

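In sucker rim cells of the octopus Octopus bimaculoides, 73 of 15842 measured genes stood above every non-sucker tissue while the whole sucker cup did not meet the same demand. A gene was included when it had at least 10 CPM (reads scaled to a library total of 1000000) in rim cells and was at least 4-fold higher there, on CPM + 1, than in each of statocyst, mantle skin, olfactory organ, eye and optic lobe. The mean of the whole-cup libraries had to fail that rule, either by lying under 10 CPM or by standing under 4-fold above at least 1 of the 5 tissues. Rim cells passed for 167 genes (1.05% of the 15842), of which 94 also passed in the cup and 73 (0.461% of the 15842) did not. The cup passed for 119 genes in all (0.751%). Because these expression values chose the genes, the levels and ratios below describe them, and no test was made on them.

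The octopus sucker is an organ of grip, touch and taste. Its rim is a soft epithelium with many sensory cells, which answer to pressure and to molecules on the surface being touched, whereas the bulk of the cup is muscle and connective tissue under an epithelium. Receptors related to those for acetylcholine are known from the sensory cells of octopus suckers, where they serve taste by contact. The deposited table gives each gene only a LOC identifier, and the reference table pairs none of the 73 with a product name or a synonym. No function is therefore given to any of them here, marker genes of the labelled tissues were not checked, and whether the receptors are among the 73 was not examined.

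Messenger RNA was sequenced from 8 libraries of 7 tissues: dissociated cells of sucker rims, whole sucker cup from the arm R1 (1 library labelled automated and 1 labelled manual), skin of the mantle, statocyst (the organ of balance), olfactory organ, eye, and the optic lobe, a part of the brain. The labels describe no treatment, genotype, age or number of animals. The title of the rim library names 8 suckers and no arm, and rim cells were dissociated where the labels mention no dissociation for the other tissues. Sucker part, dissociation and choice of suckers therefore cannot be told apart in any difference between rim cells and cup.

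Rim cells had the deepest library, with 36916825 reads, and mantle skin the shallowest, with 4782744. A value of 1 read equals 0.0271 CPM in rim cells and 0.209 CPM in mantle skin. No read in a library allows, by the upper end of the exact two-sided 95% interval, up to 0.0999 CPM in rim cells, 0.686 CPM in optic lobe and 0.771 CPM in mantle skin. Every tissue except the cup had 1 library, so no significance test between tissues was made. Intervals in parentheses are exact 95% intervals of counting error only, and cover no variation between animals or dissections.

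As a set the 73 genes were of modest level. Their CPM in rim cells ran from 10.6 to 1713 with a median of 22.9, and 32 of them lay below 20 CPM, while 16 reached 100 CPM and 2 reached 1000 CPM. Over all 8256 genes with at least 10 CPM in rim cells, the median was 41.9 CPM and the quartiles 20.6 and 99.4 CPM. The median of the 73 genes was 7.69 CPM in the automated cup library, 8.08 CPM in the manual one, 1.89 CPM in olfactory organ, 1.25 CPM in mantle skin, 0.923 CPM in statocyst, 0.490 CPM in eye and 0 in optic lobe. Together they took 0.735% of rim cell reads, against 0.183% and 0.197% of the automated and manual cup reads. Their share was 0.0955% in mantle skin, 0.0781% in statocyst, 0.0610% in eye, 0.0532% in olfactory organ and 0.0126% in optic lobe. The 94 genes that also passed in the cup were far more abundant, with a median of 152 CPM in rim cells and 6.15% of its reads.

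**Figure D1:**
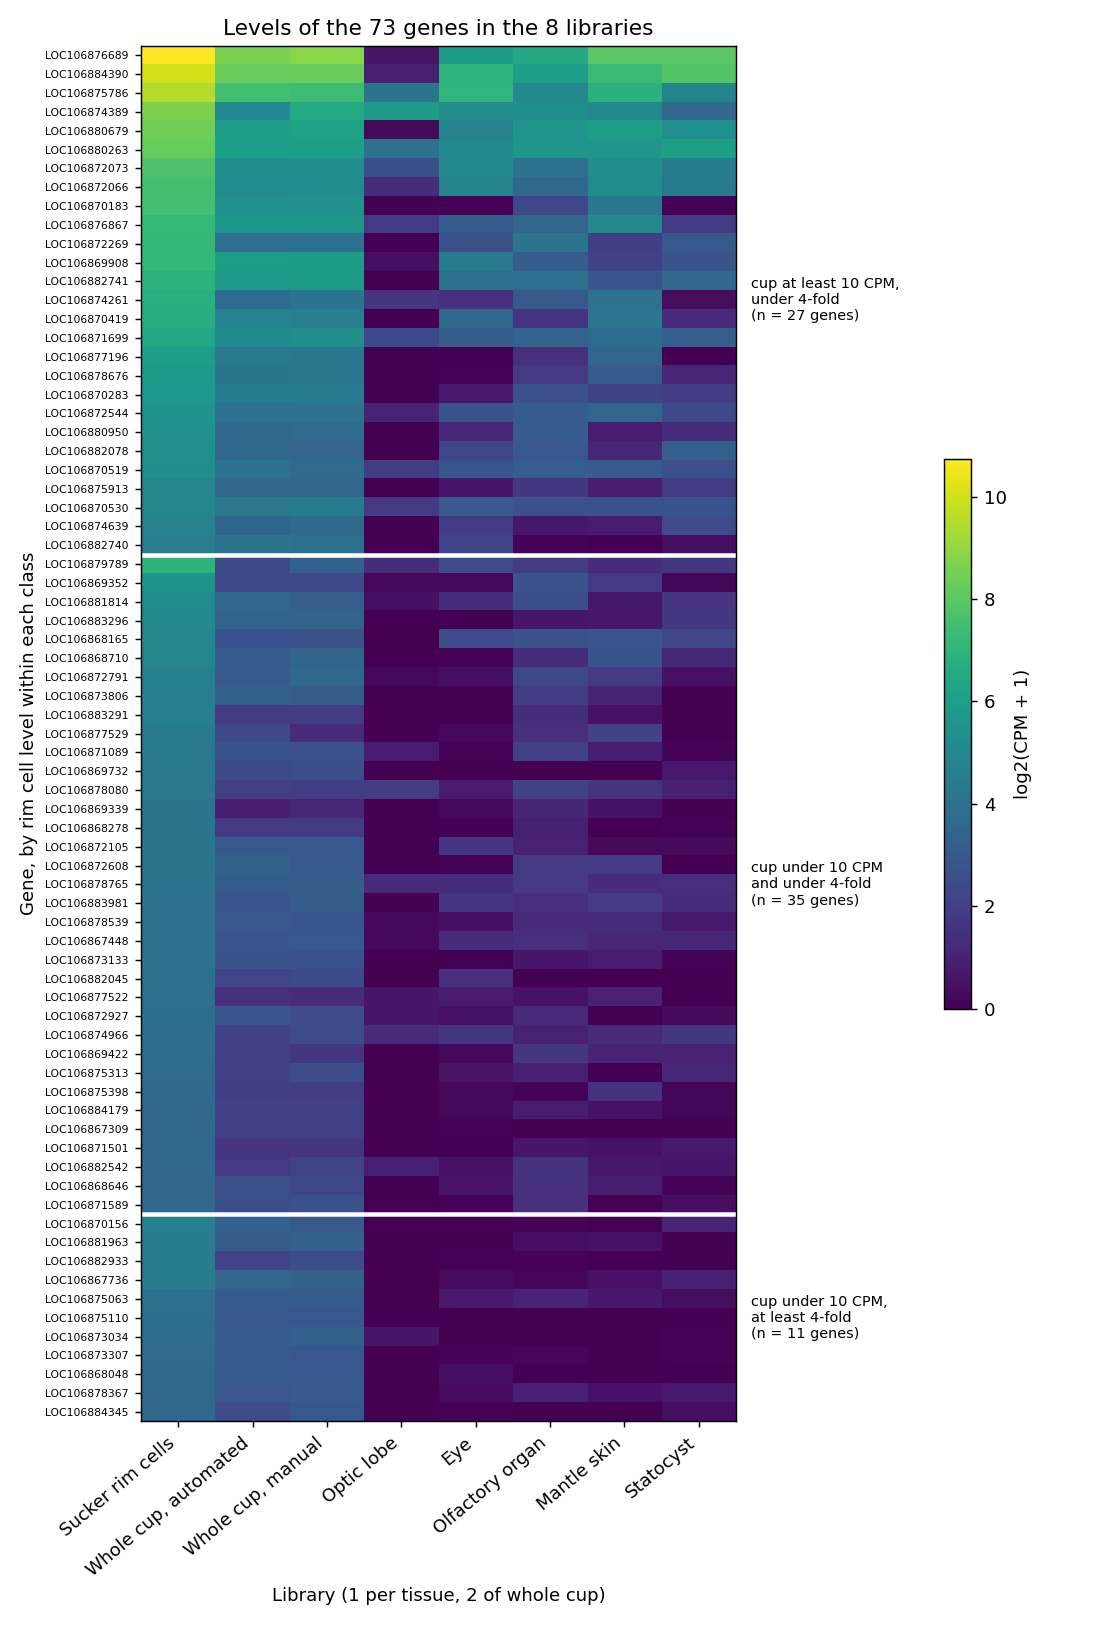
Levels of the 73 genes as log2(CPM + 1) in each of the 8 libraries (columns), with 1 gene per row, grouped by how the cup failed the rule and ordered by rim cell level within each group. Rim cells hold the highest value in every row, both cup libraries are usually next, and optic lobe has no read for 44 of the 73 genes.

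The rim cell library was not the only one with reads for these genes, so the word only in a name such as genes raised in rim cells only would not describe them. All 73 had reads in both whole-cup libraries, as did all 8256 genes with at least 10 CPM in rim cells. The label whole sucker cup does not exclude the rim, so cup reads may come from rim cells, and their origin was not tested. In the non-sucker tissues, 1 of the 73 genes had no read at all. The rule itself puts rim cells above the cup mean for each of them. The cup mean was the second highest tissue, after rim cells, for 63 genes, and both cup libraries exceeded every non-sucker tissue for 60. No share over all genes was taken for these counts of 1, 63 and 60. Cup failed the rule in 3 ways. For 27 genes it had at least 10 CPM but under 4-fold over some other tissue, for 35 it was short on both level and ratio, and for 11 it was at least 4-fold above every non-sucker tissue but under 10 CPM.

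**Figure D2:**
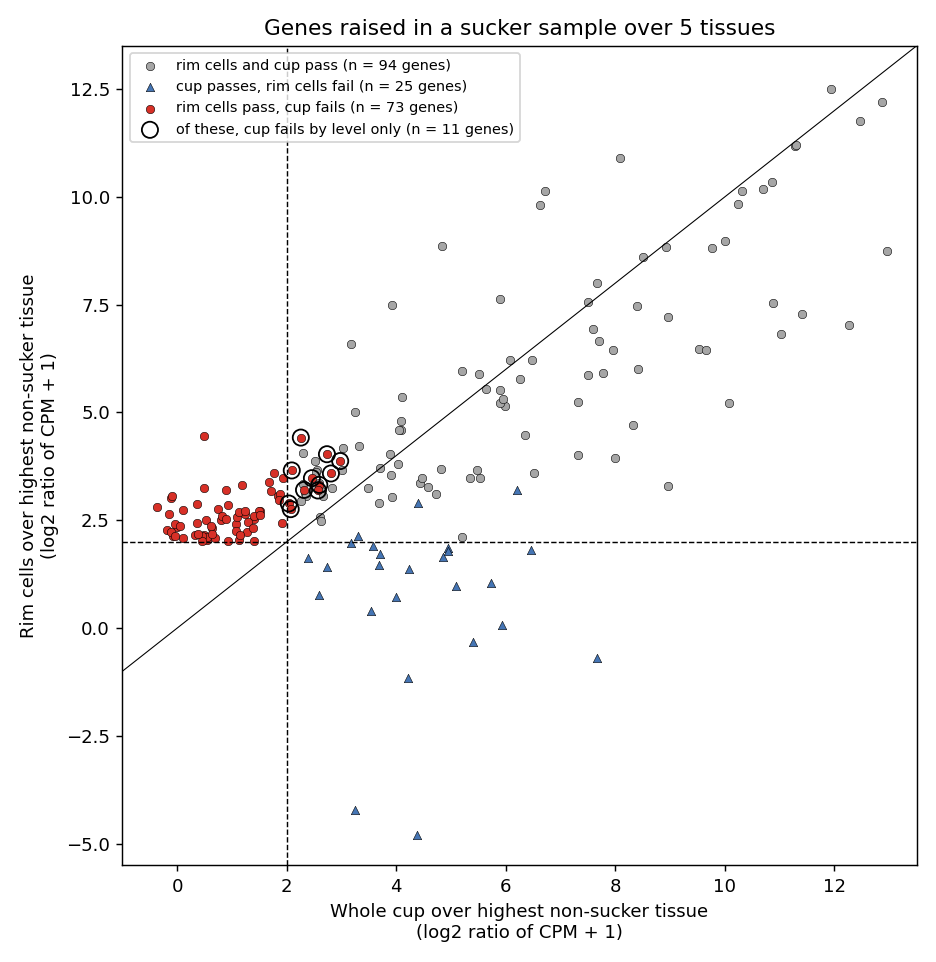
Each point is 1 gene raised in a sucker sample, placed by the log2 ratio of CPM + 1 of whole cup (horizontal) and rim cells (vertical) to the highest of the 5 non-sucker tissues, with dashed lines at 2 (4-fold) and a solid line of equal ratios. The 73 genes (red) fall above the solid line at modest ratios, and 11 of them (ringed) lie right of the vertical dashed line, where the cup failed by level only.

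The 27 genes at 10 CPM or more in the cup included the most abundant of the set. Of these 27, 15 had at least 10 CPM in mantle skin, 11 each in eye and olfactory organ, 9 in statocyst and 3 in optic lobe. The counts over all genes with at least 10 CPM in rim cells are given below. LOC106876689 led, with 1713 CPM in rim cells, 393 in the automated and 461 in the manual cup library, 254 in statocyst, 251 in mantle skin, 87.3 in olfactory organ, 58.9 in eye and 0.558 in optic lobe. LOC106884390 followed, with 1069 CPM in rim cells, 300.1 and 312 in the cup libraries, 236 in statocyst, 161 in mantle skin, 128 in eye, 62.8 in olfactory organ and 0.930 in optic lobe. Both genes were thus broadly present outside the sucker, and nearly missing from optic lobe, where they had 3 and 5 reads. LOC106875786 had 730.2 CPM in rim cells, 181 and 164 in the cup libraries, 135 in eye, 117 in mantle skin, 32.4 in olfactory organ, 27.9 in statocyst and 16.6 in optic lobe. Its second tissue outside the sucker was mantle skin, close behind eye. LOC106880679 had 338 CPM in rim cells, 64.4 and 69.2 in the cup libraries, 64.2 in mantle skin, 47.2 in olfactory organ, 40.9 in statocyst, 26.8 in eye and 1 read in optic lobe. LOC106880263 had 299.7 CPM in rim cells, 66.6 and 64.5 in the cup libraries, 67.2 in statocyst, 50.4 and 49.8 in olfactory organ and mantle skin, 32.9 in eye and 15.6 in optic lobe. The cup was level with mantle skin for the first of these and with statocyst for the second. In this group the cup stood at a median log2 ratio of 0.63 over the highest non-sucker tissue, against 2.43 for rim cells.

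LOC106870183 had a narrower pattern within that group. It reached 186 CPM in rim cells and 40.6 and 42.7 in the cup libraries, 17.8 in mantle skin and 3.996 in olfactory organ, with 1 read each in eye and statocyst and none in optic lobe. Its presence outside the sucker was thus in mantle skin and olfactory organ. LOC106872073 and LOC106872066 had much the same profile as each other. The first had 212 CPM in rim cells, 37.7 and 38.6 in the cup libraries, 39.1 in mantle skin, 32.9 in eye, 22.02 in statocyst, 15.8 in olfactory organ and 5.02 in optic lobe. The second had 188 CPM in rim cells, 35.8 and 35.9 in the cup libraries, 36.2 in mantle skin, 26.9 in eye, 19.8 in statocyst, 11.4 in olfactory organ and 1.67 in optic lobe. For both genes the cup was level with mantle skin, and rim cells stood 5.57-fold (5.17 to 6.003) and 5.24-fold (4.85 to 5.67) above the cup. No sequence was compared, so whether these genes share reads as near-identical copies was not tested.

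The 11 genes that failed in the cup by level alone were low in rim cells. Their low values outside the sucker follow from the class, a cup under 10 CPM yet at least 4-fold above every non-sucker tissue. Their rim cell levels ran from 11.2 to 25.7 CPM and their cup levels from 3.63 to 10.2 CPM in the automated and from 4.70 to 8.92 CPM in the manual library. For 9 of the 11, no tissue outside the sucker reached 1 CPM. LOC106875110 had 504 reads (13.7 CPM) in rim cells, 84 reads (7.10 CPM) and 55 reads (6.63 CPM) in the cup libraries, and no read in any other tissue. Against mantle skin, the shallowest library, rim cells were at least 17.6-fold higher by the lower end of the exact two-sided 95% interval. LOC106881963 had 22.2 CPM in rim cells and 7.95 and 8.92 in the cup libraries, with 4 reads in olfactory organ, 2 in mantle skin and none in optic lobe, eye and statocyst. LOC106882933 had 22.1 CPM in rim cells and 3.63 and 4.70 in the cup libraries, with 1 read each in eye and olfactory organ and none elsewhere. Their log2 ratios of rim cells to the highest non-sucker tissue on CPM + 1, 4.03 and 4.42, were among the 3 highest of all 73 genes. LOC106870156 had 25.7 CPM in rim cells, 8.96 and 7.11 in the cup libraries, 17 reads in statocyst and 1 in olfactory organ. LOC106873307 had 12.7 CPM in rim cells and 7.44 and 6.51 in the cup libraries, with at most 0.140 CPM in any other tissue. By the definition of the class, both cup mean and rim cells were at least 4-fold above the remaining tissues in all 11. Without a level demand on the cup, chosen after the values were seen, 62 of the 73 genes remained.

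The 35 genes short on both level and ratio had a median of 16.4 CPM in rim cells and 4.40 and 4.82 CPM in the cup libraries. The cup was at least 2-fold above the highest non-sucker tissue for 16 of them. LOC106869732 had 19.0 CPM in rim cells, 4.31 and 4.94 in the cup libraries, 10 reads in statocyst and none in any other tissue. LOC106867309 had 11.1 CPM in rim cells and 3.13 in each cup library, with 1 read in eye and none in any other tissue. For both, the cup lay just under the 4-fold demand on CPM + 1, at log2 ratios of 1.76 and 1.93. That shortfall rests on the pseudocount. The plain cup means were 4.63 and 3.13 CPM, against 0.659 and 0.0817 CPM in the highest non-sucker tissue, which is over 4-fold for each.

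Failing a rule in the cup is not in itself a difference between cup and rim cells, so the sucker samples were also compared directly. Over the 73 genes the median log2 ratio of rim cells to the cup mean was 1.56, with a range from 0.52 to 3.97. The median was 0.25 over all 8256 genes with at least 10 CPM in rim cells, and -0.31 over the 94 genes passing in both sucker samples. At least 2-fold was reached by 61 of the 73, by 989 of the 8256 genes (12.0%) and by 15 of the 94 (15.96%). At least 4-fold above both cup libraries was reached by 19 (26% of the 73), against 74 of the 8256 genes (0.896%) and 6 of the 94 (6.38%). The rule requires a ratio above 1 to the cup mean and favours a high one, so nothing is read from the difference between these medians or shares. The 19 genes became 12 with median-of-ratios size factors, 10 with a floor of 50 CPM and 9 with a pseudocount of 5 CPM. Of the 74 genes directly higher in rim cells, 49 failed against a non-sucker tissue and are not among the 73.

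**Figure D3:**
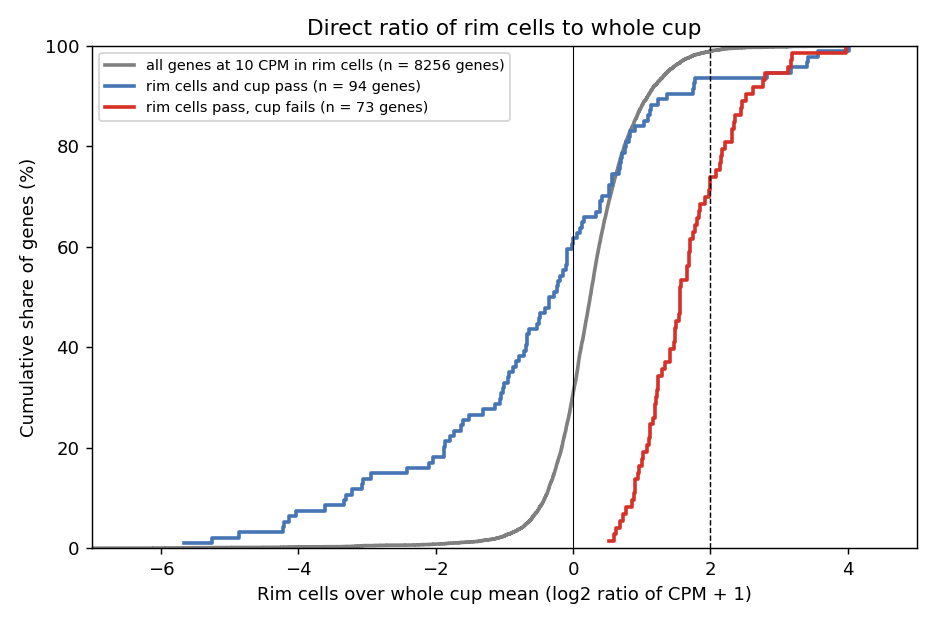
Cumulative share of genes (vertical, percent) by the log2 ratio of rim cells to the mean of the whole-cup libraries (horizontal, on CPM + 1), for all genes with at least 10 CPM in rim cells, the 94 genes passing in both sucker samples and the 73 genes, with a solid line at 0 and a dashed line at 2 (4-fold). The rule places all 73 right of 0, their median is 1.56, and most lie left of the dashed line.

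The cup mean lay below the highest non-sucker tissue for 10 of the 73 genes. The rule makes such genes over 4-fold higher in rim cells than in the cup mean, and all 10 are among the 19. On CPM + 1, LOC106879789 had both the highest ratio to the cup and the highest ratio to the non-sucker tissues. It had 121 CPM in rim cells, 4.40 and 9.16 in the cup libraries, 4.57 in eye, 2.73 in olfactory organ, 2.37 in statocyst and 1.67 each in optic lobe and mantle skin. The automated cup library and the eye were thus alike, and rim cells were 19.0-fold above the pooled cup reads (15.9 to 22.8) and 26.4-fold above eye (20.3 to 35.0). Without the pseudocount, genes nearly without reads outside the sucker had higher ratios to those tissues, such as LOC106882933, whose lower counting limit over all 5 was 28.6.

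LOC106869352 came next in ratio to the cup on CPM + 1, with 46.1 CPM in rim cells, 4.14 and 4.22 in the cup libraries, 5.68 in olfactory organ, 2.51 in mantle skin, and 1 read in optic lobe and 2 each in eye and statocyst. Rim cells were 11.05-fold above the cup (8.87 to 13.9), and the olfactory organ was slightly above the cup. LOC106872269 had 142 CPM in rim cells, 14.5 and 15.2 in the cup libraries, 16.1 in olfactory organ, 6.72 in statocyst, 5.39 in eye, 2.93 in mantle skin and no read in optic lobe. Rim cells were 9.56-fold above the cup (8.51 to 10.8), where the gene was again level with olfactory organ. LOC106869339 was a low gene of the same shape, with 620 reads (16.8 CPM) in rim cells, 10 reads in each cup library, 17 in olfactory organ, 2 each in eye and mantle skin and none in optic lobe and statocyst. Its ratio of reads to the cup, 16.9, was above that of LOC106869352, with a wide interval of 10.8 to 27.9 from few cup reads.

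LOC106874261 differed from these in its second tissue. It had 105 CPM in rim cells, 12.8 and 15.9 in the cup libraries, 16.1 in mantle skin, 6.87 in olfactory organ, 2.23 in optic lobe, 1.80 in eye and 0.264 in statocyst. Cup and mantle skin were level, and rim cells were 7.48-fold above the cup (6.63 to 8.47). LOC106883291 had 24.0 CPM in rim cells, 2.54 and 2.77 in the cup libraries, 1.61 in olfactory organ and 2 reads in mantle skin, with none in optic lobe, eye and statocyst, a ratio to the cup of 9.10 (6.90 to 12.2). Of the 19 genes, mantle skin was the highest non-sucker tissue for 8 (42.1%), olfactory organ for 6 (31.6%), eye for 3, and optic lobe and statocyst for 1 each. Among all 8256 genes with at least 10 CPM in rim cells, it was mantle skin for 16.2% and olfactory organ for 25.3%. Eye was highest for 8.41%, optic lobe for 16.3% and statocyst for 33.8%. The 19 genes are few and were chosen by these values, so no pattern is read from these counts.

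**Figure D4:**
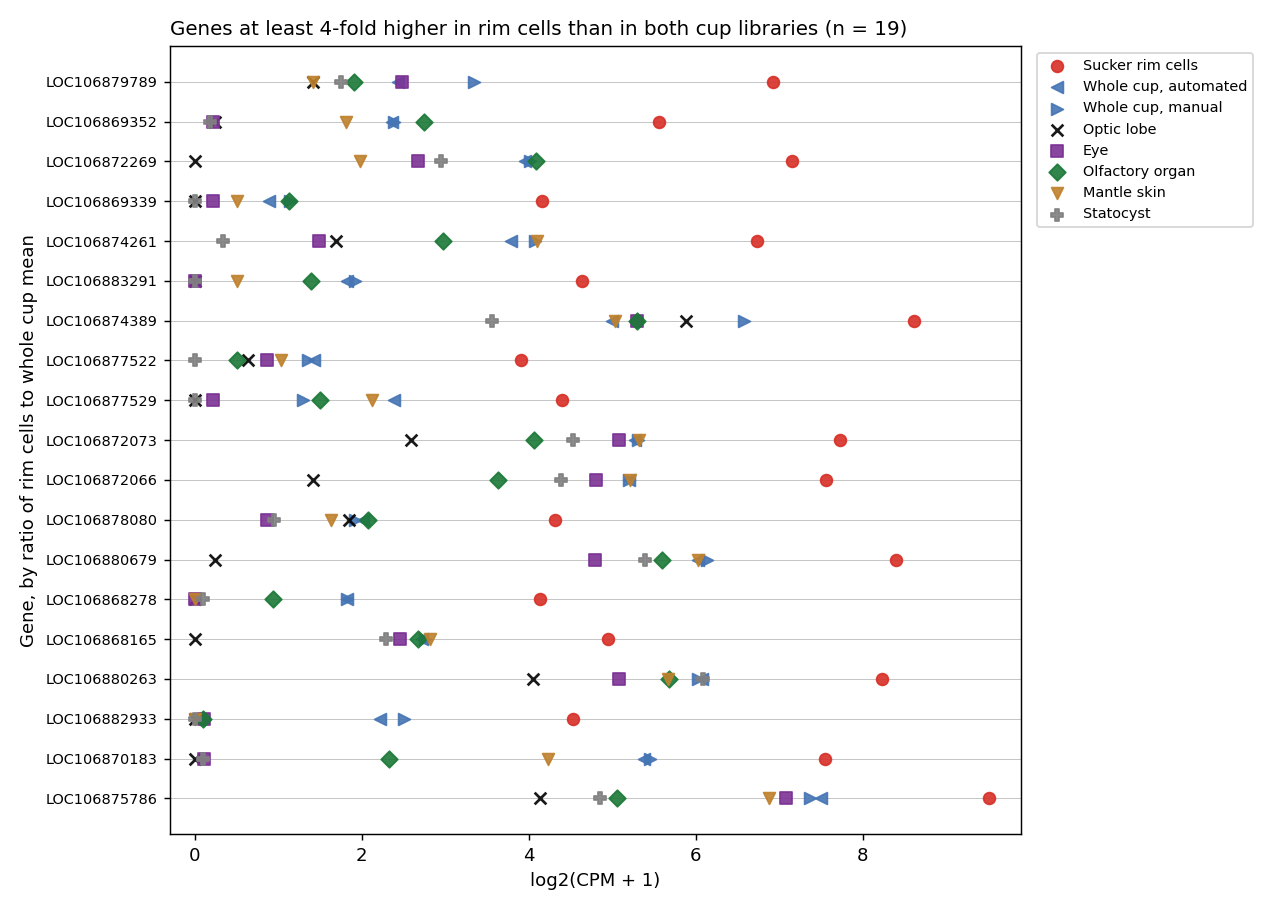
Levels as log2(CPM + 1) (horizontal) of the 19 genes at least 4-fold higher in rim cells than in both cup libraries, with 1 symbol per library and genes ordered by the ratio of rim cells to the cup mean. The rim cell value stands alone at the right in each row, while the cup symbols lie among or next to those of mantle skin and olfactory organ for many genes.

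Outside the sucker, the 73 genes were mostly present at a low level. The highest non-sucker tissue was under 1 CPM for 15 genes, between 1 and 10 CPM for 40 and at 10 CPM or more for 18. All 5 tissues were under 1 CPM for 48 of the 94 genes passing in both sucker samples (51.1%), against these 15 of 73 (20.5%). Over all 8256 genes with at least 10 CPM in rim cells it was 63 (0.763%). The rule shapes this contrast: at 10 CPM or more in the cup and under 4-fold, none of the 27 genes could qualify. Nothing is read from it. Over the 73 genes, the highest non-sucker tissue was olfactory organ for 24, mantle skin for 21, statocyst for 13, eye for 12 and optic lobe for 2, and LOC106875110 had none. Among all 8256 genes at 10 CPM in rim cells, it was olfactory organ for 25.3%, mantle skin for 16.2%, statocyst for 33.8%, eye for 8.41% and optic lobe for 16.3%. Optic lobe had no read for 44 of the 73 genes (60.3%), for 62 of the 94 (66.0%) and for 588 of the 8256 (7.12%). It reached 10 CPM for 3 of the 73, while mantle skin reached 10 CPM for 15, eye and olfactory organ for 11 each and statocyst for 9. Of the 8256 genes, optic lobe reached 10 CPM for 5604, mantle skin for 7237, eye for 6873, olfactory organ for 7464 and statocyst for 6687. Low values of the 73 in these tissues follow from the rule.

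LOC106874389 was the one gene among the 18 more abundant elsewhere whose highest non-sucker tissue was optic lobe. It had 392 CPM in rim cells, 58.2 in optic lobe, 38.4 in olfactory organ, 38.3 in eye, 31.8 in mantle skin and 10.8 in statocyst. Its cup libraries disagreed, with 31.0 CPM in the automated library and 94.4 CPM in the manual one, so that one cup library lay below optic lobe and the other above it. The manual level was 3.04-fold the automated one, where 10 of 7833 genes with at least 10 CPM in the cup differed by over 2-fold. Rim cells were 6.86-fold above the pooled cup reads (6.46 to 7.29), but 12.6-fold above the automated library (11.4 to 14.1) and 4.15-fold above the manual one (3.87 to 4.47), so the pooled interval understates the spread. The cup libraries differed by over 2-fold for 3 of the 73 genes, LOC106874389, LOC106877529 (4.23 CPM automated, 1.45 manual) and LOC106879789, and by over 1.5-fold for 6. The other 67 differed by less, and with either library alone as the cup, 72 or 73 of the same 73 genes were found. At 10 CPM or more in the cup, 1 of 27 genes of the set differed by over 1.5-fold, against 76 of all 7833 (0.970%). No share over all genes was taken below 10 CPM, where 46 of the 73 lay.

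The reference gene order of the assembly ASM119413v2 placed 61 of the 73 genes on 27 of its 30 chromosomes, with at most 5 on any. Next to each other, among measured genes, were LOC106882741 and LOC106882740. LOC106882741 had 122 CPM in rim cells, 55.4 and 56.6 in the cup libraries, 14.7 in eye, 14.1 in olfactory organ, 10.8 in statocyst, 6.06 in mantle skin and no read in optic lobe. LOC106882740 had 22.9 CPM in rim cells, 16.5 and 14.8 in the cup libraries, 3.43 in eye, 5 reads in statocyst, 1 in olfactory organ and none in mantle skin and optic lobe. Both were highest in eye among non-sucker tissues, and both were within 2.19-fold (2.05 to 2.34) and 1.45-fold (1.27 to 1.65) of the cup. Among the 27 genes that failed in the cup by ratio alone, they came closest to passing, at log2 ratios of cup to the highest non-sucker tissue of 1.86 and 1.91, followed by LOC106870283 at 1.84. The nearest genes that passed in the cup were LOC106880068, LOC106882991 and LOC106869272, at 2.27, 2.29 and 2.30. The neighbours on either side of the pair LOC106882741 and LOC106882740, LOC106882742 and LOC106871330, were not raised in rim cells.

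LOC106877522 and LOC106877529 were separated by a single measured gene, LOC106877528. LOC106877522 had 14.1 CPM in rim cells, 1.69 and 1.57 in the cup libraries, 1.05 in mantle skin, 0.817 in eye, 0.558 in optic lobe, 0.421 in olfactory organ and no read in statocyst. LOC106877529 had 20.1 CPM in rim cells, 4.23 and 1.45 in the cup libraries, 3.35 in mantle skin, 1.82 in olfactory organ, 2 reads in eye and none in optic lobe and statocyst. LOC106877528, not among the 73, had 37.4 CPM in rim cells, 8.28 and 6.75 in the cup libraries and 13.0 in mantle skin, and failed on its ratio to mantle skin. All 3 were at least 4-fold higher in rim cells than in both cup libraries. Being next to another of the 73 held for 2 of the 61 placed genes (3.28%) and for 121 of all 13929 placed genes (0.869%), and 2 genes are too few to read a pattern from.

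Some of the 73 lay near a threshold. On the ratio to non-sucker tissues, the last inside were LOC106882542, LOC106870530 and LOC106868646, each at a log2 ratio of 2.01, and the first outside were LOC106875300, LOC106878399 and LOC106876047, at 1.98, 1.98 and 1.97. On the rim cell level, LOC106871589 and LOC106868646 had 10.6 and 10.7 CPM, and LOC106873724, LOC106868214 and LOC106880882 fell outside at 9.32, 9.16 and 9.07 CPM. LOC106868214 had no read in any non-sucker tissue. On the cup level, LOC106867736, LOC106881963 and LOC106873034 had 9.58, 8.43 and 8.25 CPM and counted as failing, whereas LOC106882991, LOC106880066 and LOC106880068 had 11.5, 11.6 and 11.8 CPM and passed. The counting interval of the ratio to every non-sucker tissue stayed above 4-fold for 58 of the 73 genes. At 8-fold in place of 4-fold, 33 genes passed, 21 of them among the 73.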

How the data were processed

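Each of the 8 libraries was run on 2 lanes, which gives 16 labelled samples. Per the submitters' processing notes, Trim Galore and kallisto were used. Their versions, the build and the annotation are not stated there. The deposited table has 1 column per library in log2(CPM + 1), a unit read from the values: after inversion every deposited column sums to 1000000. All values were whole multiples of 1 read within a tolerance of 0.01 reads, which gave reads and library totals. kallisto's estimates can be fractional, and whether these were rounded is not known.

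CPM values were compared with a pseudocount of 1 CPM, a floor of 10 CPM and 4-fold. CPM intervals and ratios of reads (without pseudocount, both cup libraries pooled) are exact at 95%. The rule was run on simulated counts, with 8-fold differences planted in genes at 20 CPM or more and counting noise only. That setting does not cover genes near 4-fold or near the floor, or variation between libraries. Python 3.11.15, numpy 2.4.6, pandas 2.3.3 and scipy 1.17.1 were used. Genes, lists and thresholds were chosen with earlier results of these data known. Named genes are the 8 highest by rim level, by ratio to non-sucker tissues and by ratio to cup, and the 3 on either side of each threshold. LOC106870183, LOC106868214 as a gene without reads elsewhere, and LOC106877529, LOC106877528, LOC106882742 and LOC106871330 as neighbours, were chosen after their values were seen. Of 15842 identifiers 14305 were in the reference table, and 63 of the 73. It has no product names, so lists fixed by name were not applied. Sequences were not used here.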

Additional observations from a re-analysis of the deposited data

How the results depend on the processing

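The count of 73 genes stayed within 1.5 times with a pseudocount of 0.1 CPM (79 genes, 70 of the 73 among them), no floor (87, with 62), median-of-ratios size factors (67, with 64) and all libraries thinned to 4782744 reads (80, with 66). With a pseudocount of 5 CPM, under which low genes have smaller ratios, 39 genes passed, with a floor of 50 CPM 29 and with a demand of 8-fold 33, of which 30, 20 and 21 were among the 73. Leaving out either cup library gave 72 to 73. Of alternatives chosen after seeing the data, the higher cup library gave 72, no floor for the cup 62, a lower counting bound of 4-fold 58, and a direct 4-fold difference from both cup libraries in place of a failed rule 25. The 19 genes directly higher in rim cells became 9 with a pseudocount of 5 CPM, 10 with a floor of 50 CPM, 4 at 8-fold and 12 with size factors, and 20 to 21 with either cup library left out. Size factors moved rim cells by -0.11 and the cup libraries by 0.16 and 0.12 in log2 against CPM, which lowers every ratio of rim cells to cup. The median log2 ratio to the cup, 1.56, was 1.75 and 1.20 with pseudocounts of 0.1 and 5 CPM, 1.34 with size factors and 1.55 to 1.62 with a cup library left out. The median to the highest non-sucker tissue, 2.60, was 1.78 with a pseudocount of 5 CPM. No paired analysis was possible because every tissue but the cup has 1 library, and lane numbers mark runs of the same library. Depth limits the shallow mantle skin and optic lobe libraries most.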
